A study of Mus musculus with 8 samples.

Results

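The nucleosome positions called in wild-type (WT) round spermatids were compared, summit by summit, with those called in WT spermatocytes on the 19 autosomes of the mouse. The 2 position lists held 5322422 autosomal summits in round spermatids and 5176848 in spermatocytes, or 10499270 of the 36905351 autosomal positions in the 8 lists of the study. A summit is the base at which the coverage of a called position is highest. A summit counted as kept when the other stage had a summit within 40 bp, as new when it stood in the round spermatid list without such a partner, and as lost when it stood in the spermatocyte list without one.

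Nucleosomes are the spools of histone proteins around which DNA is wound, and micrococcal nuclease (MNase) digests the linker DNA between them while leaving wrapped DNA protected. Spermatocytes are germ cells in meiosis, and round spermatids are the haploid cells that leave it, still packed in histones before transition proteins and protamines take over in condensing spermatids. Testis-specific histone variants enter chromatin through these stages, and a nucleosome may keep its place, slide along the DNA or be evicted. A nucleosome that takes the same place in most cells gives a sharp and high summit, and regular arrays of nucleosomes form where successive linkers have similar lengths.

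Both libraries came from mouse testis cell fractions, one enriched in WT round spermatids and one enriched in WT spermatocytes, and the particles released by MNase were fractionated on a sucrose gradient. There was 1 library per stage, and the labels give no strain, age, number of animals or purity of the fractions. The lists hold positions and no expression values, so the cell types were not checked against marker genes. H2A.L.2-less round spermatids and spermatocytes, from mice without the testis-specific histone variant H2A.L.2, had 1 library each and are used as lists that the WT matching did not use and for the same step in that genotype.

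With 1 library per stage no difference between the stages has a replicate check and no test was made. The 95% Wilson intervals cover counting error only, and the SD over 19 autosomes describes how values vary from chromosome to chromosome and says nothing of animals. The reads sequenced per sample numbered 207000000 to 753000000, and the depth of each single library is not given in the sources used here. The median summit value, a coverage height without a scale shared between libraries, was 240 in round spermatids and 232 in spermatocytes, and the first percentile was 176 in round spermatids and 172 in spermatocytes. A weaker summit can therefore fall under the calling floor of 1 list and pass it in the other, and lower coverage, fewer cells with a nucleosome at that place and a nucleosome spread over more places cannot be told apart. Coordinates are those of the mm9 build, and 96.8% of round spermatid and 96.6% of spermatocyte summits lay on a 10 bp grid.

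Somewhat more summits of each list kept their place than not at a matching distance of 40 bp. In round spermatids 53.9% of the summits were kept (Wilson interval 53.85% to 53.93%, SD 0.839 over the autosomes) and 46.1%, or 2454168 summits, were new. In spermatocytes 55.4% were kept (Wilson interval 55.36% to 55.45%, SD 0.297) and 44.6%, or 2308594 summits, were lost. The kept summits formed 2868254 pairs, and no summit was used in more than 1 pair. When one list was moved by 5000 bp, which keeps its density and breaks its alignment with the other, 21.9% of round spermatid and 22.4% of spermatocyte summits still found a partner. The kept share was 2.47 times this background in each list. Whether kept summits outnumber the others depends on the setting: within 20 bp 37.2% of round spermatid and 38.2% of spermatocyte summits were kept, and among summits at or above the median value of each list 42.6% of round spermatid and 45.1% of spermatocyte summits. Among summits at or above the lower quartile 49.4% of round spermatid and 50.3% of spermatocyte summits were kept. These floors were applied to both lists before matching, so a summit whose only partner lay under the floor counted as not kept. The lower shares thus do not mean that high summits were kept less often against the full list of the other stage. No background after the shift is given for these settings.

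The autosomes were alike in what they kept. The kept share of round spermatid summits ran between 52.4% on chromosome 3 and 55.6% on chromosome 11, and that of spermatocyte summits between 54.7% on chromosome 10 and 56.0% on chromosome 7. The background varied more, so that the spermatocyte kept share was 2.87 times the background on chromosome 3 and 2.19 times on chromosome 11. Chromosome 3 had 302037 round spermatid summits against 287115 spermatocyte summits, and the highest share of new summits, 47.6%. Chromosome 11 had 308806 round spermatid summits against 309163 spermatocyte summits, and the lowest share of new ones, 44.4%.

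Most kept summits did not sit at exactly the same base. Of the kept pairs, 16.8% lay 0 to 4 bp apart, 30.2% lay 5 to 14 bp, 22.0% lay 15 to 24 bp, 16.9% lay 25 to 34 bp and 14.1% lay 35 to 40 bp apart. The median distance was 20 bp, which is 2 steps of the 10 bp grid. Neither side along the chromosome was preferred. The round spermatid summit lay at a lower coordinate than its spermatocyte partner in 41.5% of pairs and at a higher one in 41.7%, and the mean of round spermatid minus spermatocyte coordinate was 0.0425 bp.

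The distances to the nearest summit of the other stage ran smoothly across the 40 bp limit. At 36 to 40 bp lay 375298 pairs, or 7.05% of round spermatid and 7.25% of spermatocyte summits, with a median fuzziness score of 53.6 in round spermatids and 53.8 in spermatocytes. At 41 to 50 bp, just outside the limit, lay 6.46% of round spermatid and 6.64% of spermatocyte summits, with median fuzziness scores of 54.2 in round spermatids and 54.4 in spermatocytes. Each of these ranges holds 1 step of the 10 bp grid. No gap in the distances lay at the limit, so kept, new and lost summits are ranges of distance and not separate kinds of position.

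**Figure D1:**
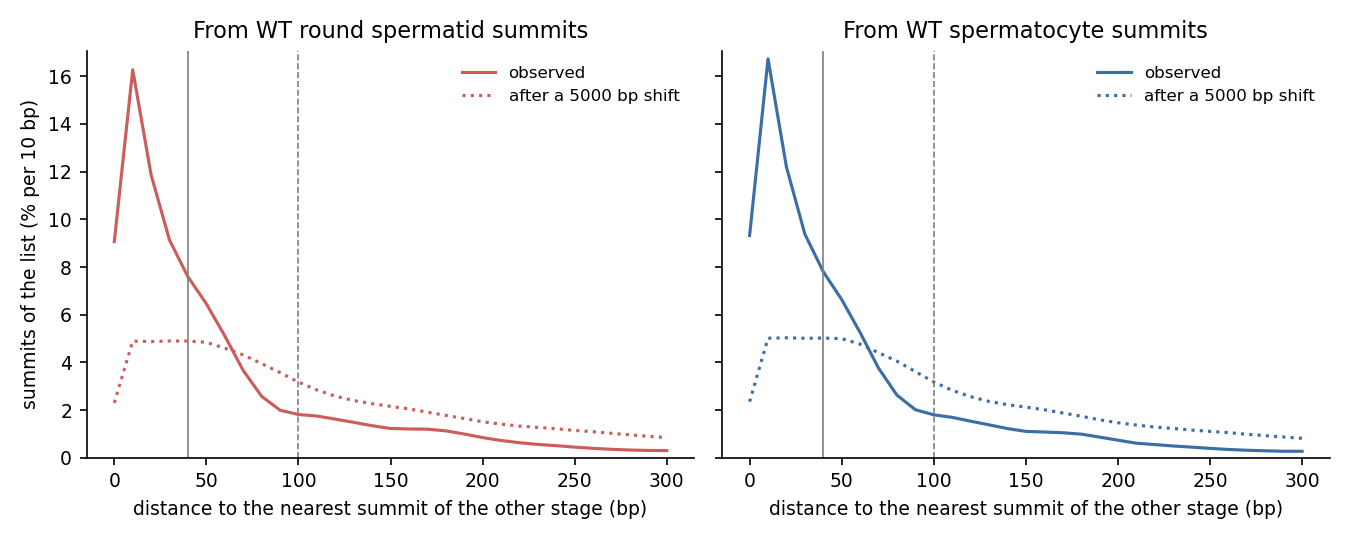
Percent of summits (y axis, per 10 bp of distance) by distance in bp to the nearest summit of the other stage (x axis), from round spermatid summits (left) and spermatocyte summits (right), as observed (solid) and after a 5000 bp shift (dotted). The grey lines mark 40 and 100 bp, and at 40 bp the observed curves stand at 7.59% of round spermatid and 7.80% of spermatocyte summits per 10 bp, above 4.90% of round spermatid and 5.02% of spermatocyte summits after the shift.

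Height set kept summits apart from the others in both lists. The median percentile of the summit value within its own list was 38.9 for new and 58.1 for kept round spermatid summits, and 39.5 for lost and 58.0 for kept spermatocyte summits. In summit values these medians were 224 for new and 256 for kept round spermatid summits, with SDs of 1.499 and 1.26 over the autosomes. Lost spermatocyte summits had a median of 216 and kept ones a median of 244, with SDs of 2.41 and 3.42. Both gaps were larger than the SD over the autosomes.

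The kept share was higher in each successive decile of summit value. Deciles are cut by percentile, and since values come in steps of 4 they differ in size. In round spermatids it was 36.9% in the lowest decile, 51.6% in the fifth and 75.5% in the highest, while the background after the shift stayed between 20.9% and 22.3%. In spermatocytes it was 38.9% in the lowest decile, 53.01% in the fifth and 76.5% in the highest, over backgrounds of 21.4% to 23.1%. Even in the lowest decile the kept share was 1.76 times the background in round spermatids and 1.82 times in spermatocytes, and in the highest decile it was 3.41 times the background in round spermatids and 3.31 times in spermatocytes. Among the summits of the highest decile, 130201 of 530923 in round spermatids were still new by the 40 bp rule and 121065 of 514709 in spermatocytes were lost.

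Fuzziness, the authors' score of the scatter of fragments about a summit, ran the other way. New summits had a median score of 53.9 and kept round spermatid summits one of 52.7, with SDs of 0.234 and 0.214 over the autosomes. Lost summits likewise had a median of 53.9 against 52.9 for kept spermatocyte summits, with SDs of 0.287 and 0.225. From the second decile of fuzziness upward each successive decile had a lower kept share. In round spermatids it was 61.4% in the second and 39.8% in the highest decile, and in spermatocytes 61.9% in the second and 41.6% in the highest. The very sharpest decile broke the trend, with 60.4% kept in round spermatids and 58.2% in spermatocytes, both below the second decile.

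The gap between sharp and fuzzy summits was widest among the high ones. Within the highest decile of summit value, 85.3% of the sharpest 20% of round spermatid summits were kept, against 63.6% of the fuzziest 20%. In spermatocytes the corresponding shares were 85.9% and 64.1%. Within the lowest decile these shares were close to each other, at 35.8% for the sharpest and 34.4% for the fuzziest round spermatid summits. In the lowest decile of spermatocyte summits the order was turned, with 34.8% of the sharpest and 36.7% of the fuzziest kept. High and sharp summits were thus the ones most often found at both stages.

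**Figure D2:**
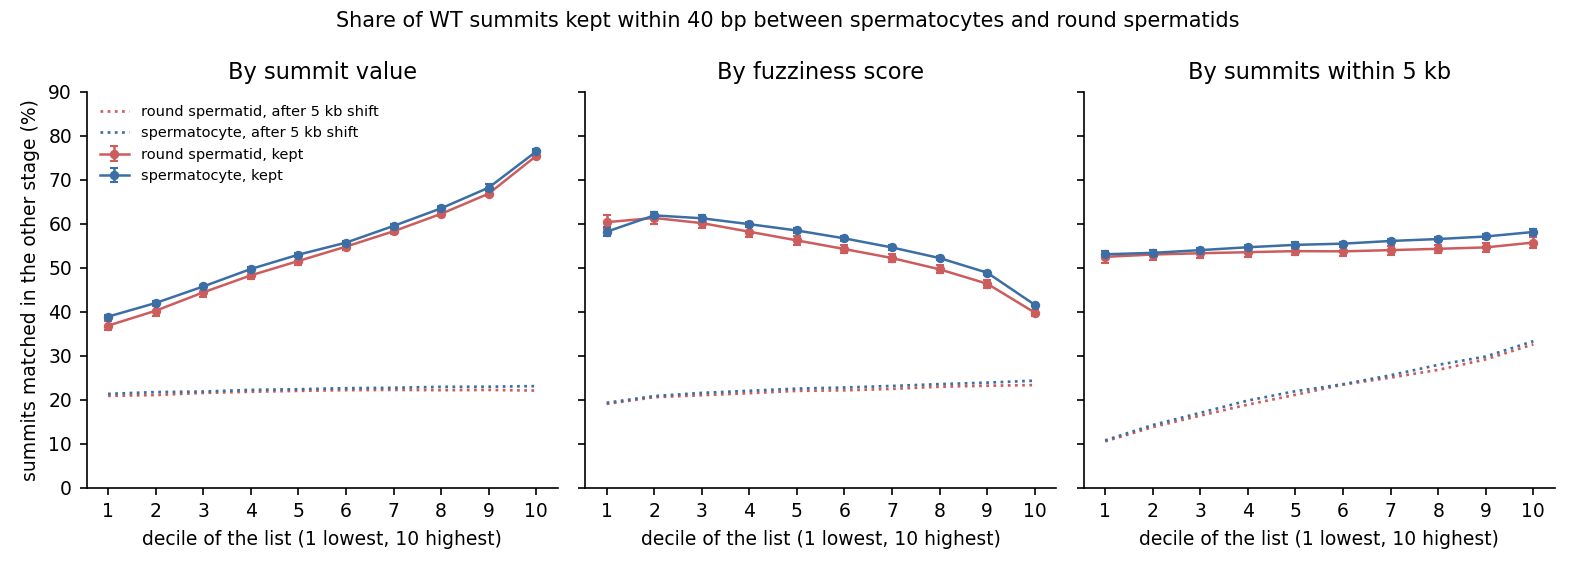
Percent of summits matched within 40 bp in the other stage (y axis) by decile of summit value, of fuzziness score and of the number of summits of the same list within 5 kb (x axes), for round spermatid (red) and spermatocyte (blue) summits; solid lines are kept shares with the SD over 19 autosomes and dotted lines the shares after a 5 kb shift. In the highest decile of summit value the kept share is 75.5% in round spermatids and 76.5% in spermatocytes, in the highest decile of fuzziness 39.8% in round spermatids and 41.6% in spermatocytes, and along local density the background changes more than the kept share.

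Local density, counted as the summits of the same list within 5 kb to either side, hardly separated the classes. The median was 25 around new and 26 around kept round spermatid summits, and 24 around lost and 25 around kept spermatocyte summits. In the sparsest decile, with a median of 10 neighbours in each list, 52.5% of round spermatid and 53.1% of spermatocyte summits were kept. In the densest decile, with medians of 40 neighbours in round spermatids and 38 in spermatocytes, 55.8% of round spermatid and 58.2% of spermatocyte summits were kept. The background differed far more over the same range, with 32.6% in the densest and 10.6% in the sparsest decile of round spermatids, and 33.3% in the densest and 10.8% in the sparsest decile of spermatocytes. The kept share in the densest decile was therefore 1.71 times the background in round spermatids and 1.74 times in spermatocytes. In the sparsest decile it was 4.97 times the background in round spermatids and 4.92 times in spermatocytes.

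Within the kept pairs the 2 stages gave similar heights on average, with wide scatter. The log2 ratio of summit values, round spermatid over spermatocyte after each was divided by the median of its own list, had a median of 0.01 and quartiles of -0.25 and 0.29. As a description over 2868254 pairs, which share their 2 libraries and so are not replicates, Spearman's rho between the stages was 0.332 for the percentile of the summit value, with a range of 0.317 to 0.384 over the autosomes. For the fuzziness score rho was 0.445, with a range of 0.431 to 0.464. The median fuzziness score of kept summits was 52.7 in round spermatids and 52.9 in spermatocytes. Within pairs the fuzziness difference, round spermatid minus spermatocyte, had a median of -0.190 (SD 0.0374 over the autosomes) and quartiles of -3.26 and 2.88.

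Kept summits of the highest decile stayed in it more often than those of the lowest decile stayed in theirs, but kept pairs also held more high summits. Of all 2868254 kept pairs, 400722 had a round spermatid summit in the highest decile. In the lowest round spermatid decile only 36.9% of 465188 summits were kept, so fewer kept pairs could fall there. How much of the contrast this sets was not tested. Of the kept summits in the highest spermatocyte decile, 36.4% were also in the highest round spermatid decile, and their median percentile in round spermatids was 82.6, against 95.1 in spermatocytes. Of the kept summits in the lowest spermatocyte decile, 10.6% were in the lowest round spermatid decile, 4.20% were in the highest, and the median percentile was 41.6 in round spermatids, against 6.46 in spermatocytes.

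Few kept summits changed their relative height 2-fold or more. In round spermatids 20734 pairs, 0.723% of all kept pairs, were at least 2-fold higher and 16383 pairs, 0.571%, were at least 2-fold lower. These shares are themselves the background over all kept pairs and have no test. A 2-fold change mostly needs a summit of the highest decile paired with one near the calling floor. In the higher pairs the median percentile was 97.3 in round spermatids and 14.5 in spermatocytes. In the lower pairs it was 14.1 in round spermatids and 97.1 in spermatocytes. The floor thus limits how many pairs can pass, and the small shares do not show that heights were stable. At 1.5-fold 233424 pairs were higher and 198820 lower. The pairs that were higher had median summit values of 424 in round spermatids and 184 in spermatocytes, and median fuzziness scores of 49.1 in round spermatids and 55.8 in spermatocytes. The pairs that were lower had median summit values of 188 in round spermatids and 396 in spermatocytes, and median fuzziness scores of 55.4 in round spermatids and 49.1 in spermatocytes. In both directions the median fuzziness was lower at the stage with the higher summit, in pairs that were selected by height. Fuzziness also went with height over all kept summits. In round spermatids its median was 50.4 in the highest and 54.7 in the lowest decile of summit value. In spermatocytes it was 50.7 in the highest and 54.8 in the lowest decile.

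New and lost summits had a summit of the other stage nearby more often than summits left unmatched after the 5000 bp shift. The word displaced, used below, describes a distance between called summits, and movement of a nucleosome was not tested. Of the new summits, 46.9% had a spermatocyte summit 41 to 100 bp away and are called displaced here, 27.8% had the nearest beyond 100 and up to 200 bp away and 25.3% had none within 200 bp. Of the lost summits, 49.6% had a round spermatid summit 41 to 100 bp away, 26.2% one beyond 100 and up to 200 bp away and 24.2% none within 200 bp. Among summits left unmatched after the 5000 bp shift, 31.3% of round spermatid and 32.3% of spermatocyte summits had their nearest partner at 41 to 100 bp, and 41.6% of round spermatid and 40.9% of spermatocyte summits had none within 200 bp.

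The higher a summit without a partner stood, the more often a summit of the other stage lay beside it. In the highest decile of summit value 74.6% of 130201 new summits and 77.2% of 121065 lost summits were displaced, and 7.49% of the new and 7.01% of the lost ones had no partner within 200 bp. In the lowest decile 32.2% of the new and 35.1% of the lost summits were displaced. There 37.4% of the new and 35.4% of the lost ones had no partner within 200 bp. The displaced shares were close to those after the shift given above, which cover unmatched summits of the whole list. Shares after the shift were not calculated by decile.

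Displaced summits and those with no partner within 100 bp, called vacant here, differed in shape. The 1151410 displaced new summits had a median fuzziness score of 54.9 and a median percentile of summit value of 48.9, while the 1302758 vacant new summits had medians of 52.8 and 33.7. The 1144632 displaced lost summits had a median fuzziness score of 55.1 and a median percentile of 50.4, while the 1163962 vacant lost summits had medians of 52.5 and 33.7. Vacant summits were thus lower and sharper than displaced ones. For lost summits the vacant ones were also sharper than the kept spermatocyte summits, whose median was 52.9. When the matching distance was widened to 73 bp, so that many displaced summits joined the kept class, the fuzziness difference of lost minus kept summits was -0.00228, against 1.03 at 40 bp, and that of new minus kept was 0.315, against 1.22.

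Spacing was read from distance curves, which count the summits found at each distance from a summit and divide by the mean density at 800 to 1000 bp. Regularity is the highest value at 330 to 450 bp, where the next-but-one nucleosome lies, over the lowest at 230 to 330 bp. Around new summits the regularity of the round spermatid list was 1.52 (SD 0.0189 over the autosomes), against 2.15 around kept round spermatid summits (SD 0.0474). Around lost summits the regularity of the spermatocyte list was 1.37 (SD 0.0222), against 2.01 around kept spermatocyte summits (SD 0.0374). The ranges over the autosomes did not overlap between new and kept or between lost and kept summits. Over all summits regularity was 1.83 in round spermatids (SD 0.0276) and 1.69 in spermatocytes (SD 0.0241).

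The first peak showed the same difference. At 180 bp the summit density of the same list was 1.501 times its mean around new and 1.84 times around kept round spermatid summits, and 1.40 times around lost and 1.78 times around kept spermatocyte summits. At 280 bp, between the peaks, it was 0.800 times the mean around new and 0.642 times around kept round spermatid summits, and 0.847 times around lost and 0.674 times around kept spermatocyte summits. The repeat length, the slope of a line through the positions of the first 4 peaks, was 187 bp around both new and kept round spermatid summits and 190 bp around both lost and kept spermatocyte summits. The SD over the autosomes was between 1.21 and 2.38 bp, the curve is read in 10 bp bins, and over all summits the repeat length was 187 bp at both stages, so a 3 bp step between the stages was not resolved.

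New and lost summits also had lower regularity than kept ones of like height. In the fifth decile of summit value regularity was 1.49 around new and 1.97 around kept round spermatid summits, and 1.35 around lost and 1.88 around kept spermatocyte summits. In the highest decile it was 2.02 around new and 2.85 around kept round spermatid summits, and 1.64 around lost and 2.50 around kept spermatocyte summits.

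The other stage was close to as regular around kept summits as their own list was, and less regular around new and lost ones. Spermatocyte summits around kept round spermatid summits had a regularity of 1.957, and round spermatid summits around kept spermatocyte summits one of 2.03. Spermatocyte summits around new round spermatid summits had a regularity of 1.22, and round spermatid summits around lost spermatocyte summits one of 1.15. Close by, these curves are shaped by the matching rule, which leaves no partner within 40 bp of a new or lost summit. At 50 bp the spermatocyte density was 2.87 times its mean around new summits, and the round spermatid density was 2.98 times its mean around lost summits. Around vacant summits alone, which are a large part of both classes, the other stage was more regular, at 1.39 for new and 1.37 for lost ones.

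**Figure D3:**
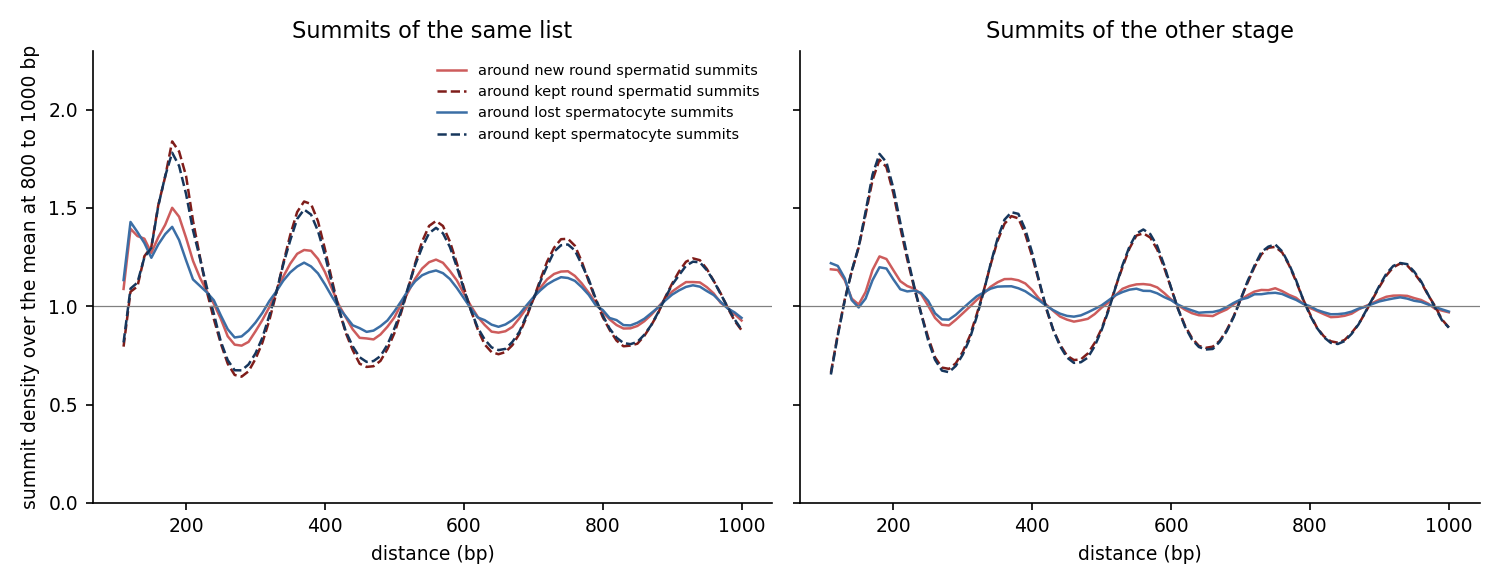
Summit density over its mean at 800 to 1000 bp (y axis) by distance in bp (x axis, from 110 bp) around new and kept round spermatid summits (red) and lost and kept spermatocyte summits (blue), counted in the same list (left) and in the list of the other stage (right). Kept summits (dashed) reach 1.84 in round spermatids and 1.78 in spermatocytes at 180 bp of the same list, and new and lost summits (solid) reach 1.25 and 1.198 at 180 bp in the other stage.

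Arrays were defined as runs of summits with successive gaps of 150 to 230 bp. Runs of 4 or more held 13.0% of round spermatid summits (SD 1.72 over the autosomes) in 144319 arrays and 10.8% of spermatocyte summits (SD 1.64) in 119008 arrays. Arrays of 10 or more summits numbered 1596 in round spermatids and 915 in spermatocytes, and the longest had 21 summits at each stage. The round spermatid list was also denser, with a median gap of 240 bp between successive summits against 250 bp in spermatocytes. With the 4700815 highest summits of each list the shares in arrays were 11.1% in round spermatids and 9.43% in spermatocytes.

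Summits inside arrays had a higher kept share than summits outside them, over a higher background. In round spermatids 60.2% were kept inside and 52.9% outside arrays, a difference of 7.28 percentage points (SD 0.640 over the autosomes). In spermatocytes 63.8% were kept inside and 54.4% outside, a difference of 9.46 points (SD 0.560). The background after the shift was 25.6% inside and 21.3% outside arrays in round spermatids, and 26.5% inside and 21.9% outside in spermatocytes. The kept share was higher in each longer class of arrays. In round spermatids it was 65.7% in arrays of 10 or more and 50.8% for single summits, and in spermatocytes 70.8% in arrays of 10 or more and 51.6% for single summits. The background was higher too, at 30.3% in arrays of 10 or more and 20.5% for single summits in round spermatids, and at 30.7% and 21.1% for these classes in spermatocytes. The kept share over the background was thus 2.17 in arrays of 10 or more and 2.47 for single summits in round spermatids, and 2.31 and 2.45 for these classes in spermatocytes.

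Members of long arrays were also higher, with a median percentile of summit value of 66.2 in round spermatid and 64.6 in spermatocyte arrays of 10 or more, against 44.0 for single round spermatid and 45.1 for single spermatocyte summits. At like heights array members also had the higher kept share, but their background was higher as well. In the lowest decile of summit value 41.5% of array members and 35.2% of single summits were kept in round spermatids, and 47.0% of array members and 36.4% of single summits in spermatocytes. In the highest decile 78.6% of array members and 73.7% of single summits were kept in round spermatids, and 80.6% of array members and 74.2% of single summits in spermatocytes. The backgrounds in the highest decile were 26.1% for array members and 20.6% for single summits in round spermatids, and 27.2% for array members and 21.7% for single summits in spermatocytes. Kept minus background was then 52.4 points for array members and 53.1 for single summits in round spermatids, and 53.4 points for array members and 52.5 for single summits in spermatocytes. In the lowest decile it was 16.6 points for array members and 15.5 for single summits in round spermatids, and 21.04 points for array members and 16.2 for single summits in spermatocytes. As a ratio to the background, the kept share in the highest decile was 3.01 for array members and 3.58 for single summits in round spermatids, and 2.96 for array members and 3.42 for single summits in spermatocytes. In the lowest decile the ratio was 1.67 for array members and 1.78 for single summits in round spermatids, and 1.81 for array members and 1.80 for single summits in spermatocytes. Whether array members exceeded single summits thus depended on the list, on the decile and on how the background was taken into account.

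Whole arrays seldom had every summit kept within 40 bp and seldom had none kept. Of 27573 round spermatid arrays of 6 or more summits, 1777 (6.44%) had every summit kept and 168 (0.609%) had none. Of 19558 spermatocyte arrays of that length, 1846 (9.44%) had every summit kept and 83 (0.424%) had none. After the 5000 bp shift 0.131% of round spermatid and 0.184% of spermatocyte arrays had every summit matched, and 17.2% of round spermatid and 16.9% of spermatocyte arrays had none. The median array of this length had 66.7% of its summits kept at each stage. In arrays of 6 to 9 summits, 62.3% of round spermatid and 66.4% of spermatocyte summits were kept. What these shares would give if array members were kept independently was not calculated, so the whole-array shares are not read as a trait of arrays.

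The offsets of successive array members to the nearest summit of the other stage, both within 93 bp, had a Pearson correlation of 0.111 over 341526 neighbour pairs in round spermatids and of 0.127 over 299667 in spermatocytes, given as a description of pairs that share their libraries. After the 5000 bp shift the values were 0.104 in round spermatids and 0.133 in spermatocytes. These offsets include kept members. Where an array member had its nearest partner 41 to 93 bp to the right, the next member was displaced to the same side in 17.6% and to the other side in 12.7% of 36153 cases in round spermatids, against 31.9% and 29.03% after the shift. In spermatocytes the next member was displaced to the same side in 17.97% and to the other side in 11.98% of 30608 cases, against 32.8% and 27.9% after the shift. Displaced neighbours thus lay on the same side more often than on opposite sides, and the balance was more uneven in the aligned lists. Most next members were within 40 bp (69.6% in round spermatids and 70.1% in spermatocytes). Summits of a list lie at least 100 bp apart, which limits how often the partners of neighbouring members can lie on opposite sides. How much of the imbalance this spacing sets was not tested. The correlations were close to those after the shift, so no joint displacement of neighbours is read from these values.

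The longest arrays show this mixture base by base. The longest round spermatid array had 21 summits on chromosome 4 from 153658341 to 153661991, with a mean gap of 182.5 bp and summit values of 184 to 504. Of its members 12 had a spermatocyte summit within 40 bp, 5 had one at 41 to 100 bp and 4 had none within 100 bp, and the span held 17 spermatocyte summits. The summit at 153658681 had a spermatocyte summit at the same base, with summit values of 392 in round spermatids and 336 in spermatocytes. Its summit at 153660931 stood 60 bp from the spermatocyte summit at 153660991, with summit values of 496 in round spermatids and 308 in spermatocytes and fuzziness scores of 47.8 in round spermatids and 55.3 in spermatocytes. Its last summit, at 153661991, had a value of 296 in round spermatids, and the nearest spermatocyte summit, at 153661851, stood at -140 bp.

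The next longest lay nearby on chromosome 4, from 153614371 to 153617911, with 20 summits, of which 11 were kept, 7 displaced and 2 vacant. Its span held 19 spermatocyte summits. At its end 3 successive members, at 153617551, 153617751 and 153617911, had their nearest spermatocyte summit at -70, -55 and -50 bp, all on the same side. The member at 153615141 kept its place within 20 bp and had a fuzziness score of 47.9 in round spermatids, against 58.5 in spermatocytes.

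The longest spermatocyte array had 21 summits on chromosome 7 from 151828741 to 151832491, with a mean gap of 187.5 bp. Of its members 15 were kept, 3 displaced and 3 vacant, and its span held 19 round spermatid summits. Its highest summit, at 151830841, was at the same base in both stages, with summit values of 424 in round spermatids and 568 in spermatocytes and fuzziness scores of 50.01 in round spermatids and 44.7 in spermatocytes. Its first summit, at 151828741, was sharp in spermatocytes, with a fuzziness score of 42.8 and a value of 232, and the nearest round spermatid summit was 230 bp away. The second spermatocyte array, of 19 summits on chromosome 4 from 128564311 to 128567651, had 13 kept, 3 displaced and 3 vacant members and 15 round spermatid summits in its span.

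**Figure D4:**
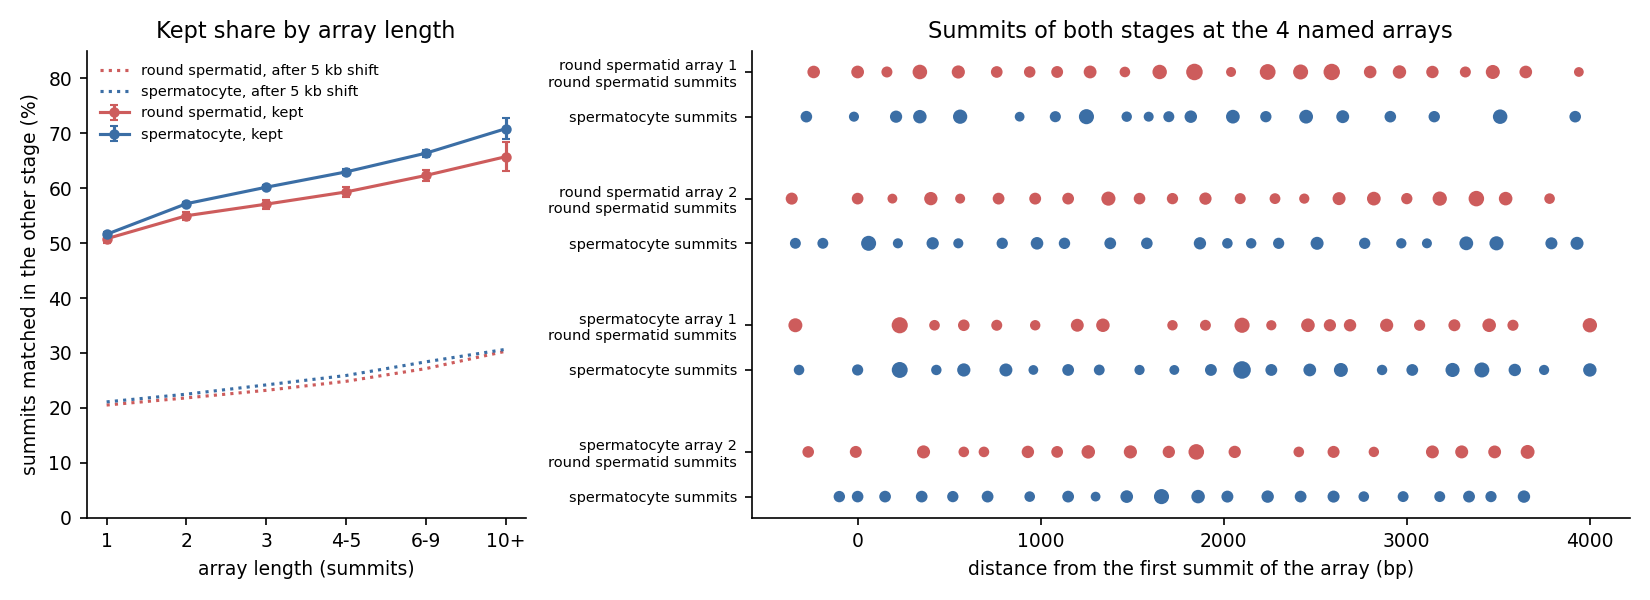
Left, percent of summits matched within 40 bp in the other stage (y axis) by array length in summits (x axis), with the SD over 19 autosomes, for round spermatid (red) and spermatocyte (blue) lists and after a 5 kb shift (dotted); right, the summits of both stages along the 4 named arrays, by distance in bp from the first summit, with larger dots for higher summit values. Kept shares reach 65.7% in round spermatid and 70.8% in spermatocyte arrays of 10 or more, and each named array holds aligned, displaced and vacant summits.

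Along the chromosomes, 2408 windows of 1 Mb had at least 500 summits in each list. The kept share of spermatocyte summits had a median of 55.0% over the windows, with 5th and 95th percentiles of 51.9% and 58.4%. In the 20% of windows with the most spermatocyte summits the median kept share was 56.6% over a background of 28.8%, and in the 20% with the fewest it was 54.1% over a background of 11.4%. The log2 ratio of summit numbers, round spermatid over spermatocyte, had a median of 0.03 and ran from -0.19 to 0.69.

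A few windows stood far from the rest. The highest kept share was 74.4%, on chromosome 1 from 85000001 to 86000000, where 1413 round spermatid and 1378 spermatocyte summits had median values of 860 in round spermatids and 728 in spermatocytes, far above the medians of the lists. Its background was 39.1%, and the kept share was 1.90 times it, below the median of 2.65 times over the windows. The window on chromosome 5 from 95000001 to 96000000 kept 70.2%, with median values of 360 in round spermatids and 312 in spermatocytes, and that on chromosome 13 from 66000001 to 67000000 kept 69.5%, with medians of 356 in round spermatids and 344 in spermatocytes. Their kept shares were 2.24 times the background on chromosome 5 and 4.05 times on chromosome 13. The part of these heights in the kept shares was not tested. The lowest kept share was 44.1%, on chromosome 4 from 42000001 to 43000000, with 1038 round spermatid and 859 spermatocyte summits. On chromosome 2 from 176000001 to 177000000 it was 44.8%, with 616 round spermatid and 618 spermatocyte summits. The kept share was 2.60 times the background of 17.0% in the window on chromosome 4 and 4.13 times the background of 10.8% in that on chromosome 2, so the order of the windows by kept share was not their order over the background.

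The 3 windows with the highest ratios of summit number were all on chromosome 7. From 33000001 to 34000000 there were 964 round spermatid and 596 spermatocyte summits, a log2 ratio of 0.69, and 70.5% of the round spermatid summits were new. This window also had 1 of the 3 lowest kept shares of spermatocyte summits, 47.7%, which was 6.17 times its background of 7.72%. From 21000001 to 22000000 there were 1208 round spermatid and 789 spermatocyte summits (log2 ratio 0.61), and from 22000001 to 23000000 there were 1050 round spermatid and 692 spermatocyte summits (log2 ratio 0.60), with 64.6% of the round spermatid summits new in the first of these windows and 65.5% in the next. The 3 lowest ratios were closer to the median. They lay on chromosome 7 from 98000001 to 99000000, with 1244 round spermatid and 1415 spermatocyte summits (log2 ratio -0.19), on chromosome 2 from 141000001 to 142000000, with 1471 round spermatid and 1673 spermatocyte summits (-0.19), and on chromosome 11 from 91000001 to 92000000, with 1384 round spermatid and 1556 spermatocyte summits (-0.17).

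The H2A.L.2-less lists gave a look at the same classes in libraries the matching did not use. They were shorter, with 4700815 summits in H2A.L.2-less round spermatids and 4764344 in H2A.L.2-less spermatocytes, and after the 5000 bp shift 18.3% of new summits were found in H2A.L.2-less round spermatids and 19.5% in H2A.L.2-less spermatocytes. Taken as whole classes, which differ in height, kept summits were found most often. Of the kept round spermatid summits 51.9% were found in H2A.L.2-less round spermatids and 60.5% in H2A.L.2-less spermatocytes, and of the kept spermatocyte summits 51.1% were found in H2A.L.2-less round spermatids and 61.0% in H2A.L.2-less spermatocytes. In the highest decile of summit value, new summits were above these shares in H2A.L.2-less round spermatids (55.9%) and below them in H2A.L.2-less spermatocytes (56.0%). Lost summits of that decile were above them in H2A.L.2-less spermatocytes (63.4%) and below them in H2A.L.2-less round spermatids (47.8%).

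All classes were found more often in H2A.L.2-less spermatocytes, by differing amounts. The round spermatid minus spermatocyte difference was -8.60 points for kept round spermatid summits (SD 0.779) and -9.91 points for kept spermatocyte summits (SD 0.742), with the same sign on 19 of 19 autosomes for both. Of the lost spermatocyte summits 32.5% were found in H2A.L.2-less round spermatids and 39.7% in H2A.L.2-less spermatocytes, a difference of -7.25 percentage points (SD 0.828 over the autosomes) with the same sign on 19 of 19 autosomes. The backgrounds were 18.3% in H2A.L.2-less round spermatids and 19.5% in H2A.L.2-less spermatocytes. In the highest decile of summit value 47.8% of lost summits were found in H2A.L.2-less round spermatids and 63.4% in H2A.L.2-less spermatocytes, a difference of -15.6 points.

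The difference was smallest for new summits, and the differences between the classes were not tested. The shares were 33.9% in H2A.L.2-less round spermatids and 35.7% in H2A.L.2-less spermatocytes, a difference of -1.76 points (SD 0.661), lower in round spermatids on 19 of 19 autosomes. Divided by their backgrounds the shares were 1.85 in H2A.L.2-less round spermatids and 1.83 in H2A.L.2-less spermatocytes. In the highest decile of summit value 55.9% of new summits were found in H2A.L.2-less round spermatids and 56.0% in H2A.L.2-less spermatocytes, a difference of -0.0853 points, with round spermatids higher on 8 autosomes and lower on 11. Over their backgrounds these shares were 2.89 in H2A.L.2-less round spermatids and 2.78 in H2A.L.2-less spermatocytes. Among the 33033 highest-decile new summits that were vacant in WT spermatocytes, 54.4% were found in H2A.L.2-less round spermatids and 56.4% in H2A.L.2-less spermatocytes. The first share was 2.87 times its background of 18.9% and the second 2.86 times its background of 19.7%. Among the 27619 highest-decile lost summits that were vacant in WT round spermatids, 49.99% were found in H2A.L.2-less round spermatids and 64.1% in H2A.L.2-less spermatocytes. For these lost summits the share was 2.65 times its background in H2A.L.2-less round spermatids and 3.16 times in H2A.L.2-less spermatocytes. High summits that WT spermatocytes lacked within 100 bp thus had a partner above the background in both H2A.L.2-less lists, to a like degree over it. Genotype, depth and the single library of each list cannot be told apart here.

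**Figure D5:**
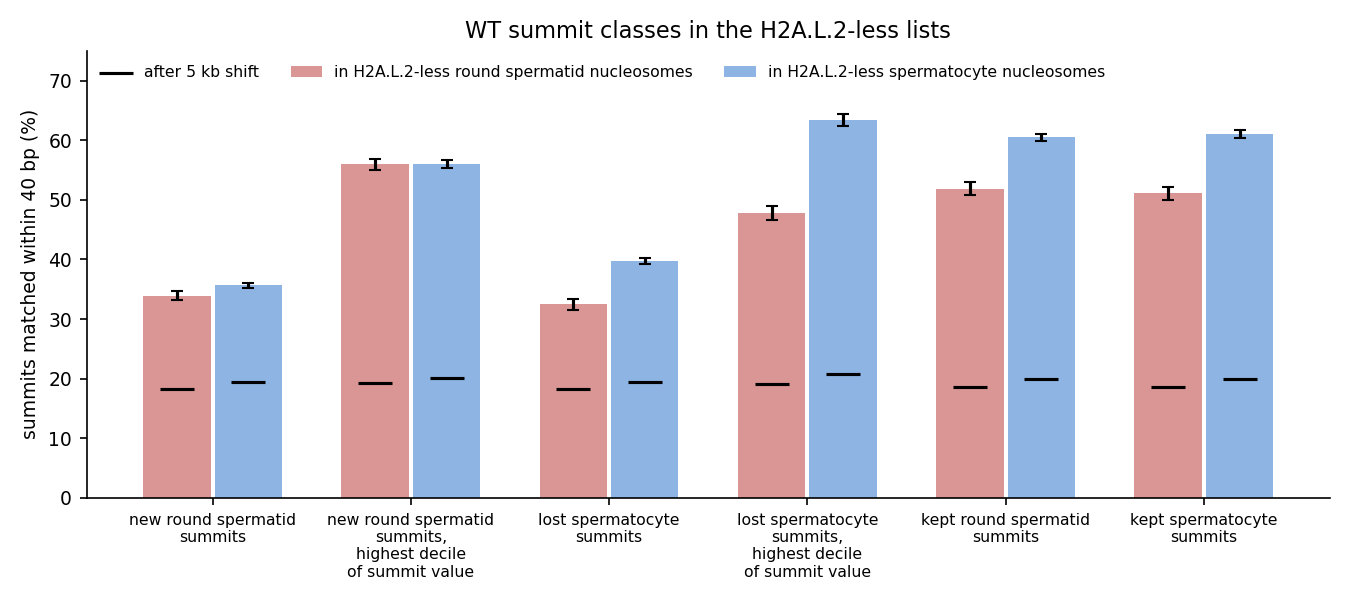
Percent of WT summits (y axis) with a summit within 40 bp in the H2A.L.2-less round spermatid list (red bars) and the H2A.L.2-less spermatocyte list (blue bars), by WT class (x axis), with the SD over 19 autosomes and the share after a 5 kb shift as black lines. New summits were matched at 33.9% in H2A.L.2-less round spermatids and 35.7% in H2A.L.2-less spermatocytes, lost summits at 32.5% in H2A.L.2-less round spermatids and 39.7% in H2A.L.2-less spermatocytes.

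Set beside the same step in the H2A.L.2-less lists, the WT step kept more summits. New summits made up 46.1% of the WT round spermatid list and 55.4% of the H2A.L.2-less one, and lost summits 44.6% of the WT spermatocyte list and 56.0% of the H2A.L.2-less one. Of the new summits 46.9% in WT and 35.2% in H2A.L.2-less lists were displaced, and of the lost summits 49.6% in WT and 35.03% in H2A.L.2-less lists. The median percentile of lost minus kept summits was -18.6 for the WT step and -13.9 for the H2A.L.2-less step, and the median fuzziness of lost minus kept summits was 1.03 for the WT step and 1.05 for the H2A.L.2-less step. The H2A.L.2-less lists were also the shorter ones, and no background after the shift is given for their step. With the 4700815 highest summits of each WT list, 52.7% of summits were kept in each list and 43.5% of lost summits were displaced. The difference between the genotypes was not tested.

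The classes also differed in the later WT lists. In nucleosome-sized fragments of WT condensing spermatids 21.0% of new, 27.4% of kept round spermatid, 22.1% of lost and 27.4% of kept spermatocyte summits were found, over backgrounds of 15.5% to 15.9%. In the small structures of WT condensing spermatids, the shorter protected fragments of that stage, 40.0% of new and 44.0% of kept round spermatid summits were found, and 33.6% of lost and 44.0% of kept spermatocyte summits, over backgrounds of 23.8% to 24.4%. New summits were thus found more often among the small structures than lost ones, with SDs of 2.14 and 2.72 over the autosomes. New summits come from the round spermatid library and lost ones from the spermatocyte library, and the difference was not tested.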

How the data were processed

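The authors cut testis chromatin with MNase, sequenced the protected fragments and deposited 1 list of positions per sample. The submitters' processing notes list Bowtie2 2.2.9, deepTools 2.2.4 and, as genome build, mm9. Per the series description, 3 runs per sample were merged after alignment. Summit values were deposited as a coverage signal, in whole multiples of 4, and carry no visible scaling to depth. The fuzziness score is deposited as the authors' caller gave it. The caller, its smoothing and its thresholds, and the treatment of duplicate or multiply aligned reads, are not given in the sources used here.

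Summits were read per the file headers, grouped by sample title, and matched within 40 bp on the autosomes. Shares have 95% Wilson intervals and the SD over 19 autosomes. The background is the share after a 5000 bp shift, a description and not a test. Percentiles are mid-ranks within a list. Distance curves used 10 bp bins smoothed over 5 bins, with the first peak read at 160 to 220 bp. Windows of 1 Mb with at least 500 summits per list were named at the 3 highest and 3 lowest kept shares and number ratios, and the 2 longest arrays per list without a summit above percentile 99.9. No gene is named, since the annotation at hand is of another build than mm9. Alternatives were other match distances, summit value floors, equal numbers of positions, smoothing, array gaps and density windows. With equal numbers, ties in summit value were broken in an order unrelated to the coordinate. Members and lists were chosen with earlier results of these data known. The code was tested on simulated data. Python 3.11.15, numpy 2.4.6, pandas 2.3.3, scipy 1.17.1 and matplotlib 3.10.9 were used.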

Additional observations from a re-analysis of the deposited data

Results flagged for a closer look

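Each of 3 measures differed in opposite directions between the stages in WT and in H2A.L.2-less lists, with 1 library in each list, and the difference between the genotypes was not tested. The number of autosomal positions, round spermatid minus spermatocyte, was 145574 for WT and -63529 for H2A.L.2-less lists. The percent of summits in arrays of 4 or more, round spermatid minus spermatocyte, was 2.21 points for WT and -1.05 points for H2A.L.2-less lists, with 13.0% in round spermatids and 10.8% in spermatocytes of WT and 8.78% in round spermatids and 9.83% in spermatocytes of H2A.L.2-less mice. The median summit value, round spermatid minus spermatocyte, was 8 for WT and -20 for H2A.L.2-less lists. In both genotypes the longer list of the pair was also the one with the higher median summit value and the larger share in arrays.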

How the results depend on the processing

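No paired analysis was possible because there was 1 library per group and no result comes from a test. Of 154 values under alternative settings, 43 stayed within the spread used here (the Wilson interval for shares, the SD over autosomes for other values, 1.5 times for counts), 110 moved beyond it and 1 reversed. Using mutual nearest summits changed nothing, since summits within a list lay at least 100 bp apart. Depth limits every count of positions, and Wilson intervals on so many summits are narrow enough that almost any setting moves a share beyond them.

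Matching within 20 bp and 73 bp kept 37.2% and 69.1% of round spermatid and 38.2% and 71.1% of spermatocyte summits. At these 2 distances the percentile difference was -16.3 and -24.4 for new minus kept and -15.2 and -21.8 for lost minus kept, and the fuzziness difference 1.33 and 0.315 for new minus kept and 1.18 and -0.00228 for lost minus kept, the last being the value that reversed. In kept pairs the fuzziness difference was -0.234 at 73 bp. Regularity at 20 and 73 bp was 2.28 and 1.97 around kept round spermatid, 1.61 and 1.55 around new, 2.14 and 1.82 around kept spermatocyte and 1.47 and 1.40 around lost summits; repeat length was 190 bp around kept round spermatid and 187 bp around lost summits at 20 bp. Inside minus outside arrays the kept share was 5.75 and 6.22 points in round spermatids and 7.45 and 8.27 in spermatocytes. The densest minus the sparsest decile of the kept share over background was -4.29 and -2.38 in round spermatids and -4.08 and -2.32 in spermatocytes. In H2A.L.2-less lists at 73 bp, the round spermatid minus spermatocyte difference for new summits was -3.11 points and the spermatocyte minus round spermatid difference for lost summits 4.35 points.

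With both lists cut at the lower quartile and at the median of their values before matching, 49.4% and 42.6% of summits were kept in round spermatids. In spermatocytes 50.3% and 45.1% were kept. At the median the percentile difference was -17.3 for new and -16.0 for lost minus kept. At these 2 floors the fuzziness difference was 0.947 and 0.706 for new and 0.731 and 0.533 for lost minus kept, and -0.238 in kept pairs at the quartile. Regularity was 2.50 and 2.92 around kept round spermatid, 1.75 and 2.10 around new, 2.28 and 2.64 around kept spermatocyte and 1.54 and 1.79 around lost summits. Repeat length was 190 bp around kept round spermatid summits at both floors, 190 bp around new ones at the median and 187 bp around lost ones at the quartile. Arrays held 8.85% and 5.17% of round spermatid and 7.30% and 3.95% of spermatocyte summits. These differences in H2A.L.2-less lists were -3.09 and -2.80 points for new and 8.51 and 8.17 for lost summits.

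With equal numbers of positions 52.7% were kept in each list, the percentile difference of new minus kept was -17.3, and the fuzziness difference was 1.11 for new, 0.875 for lost and -0.242 in kept pairs. Regularity was then 2.297 around kept round spermatid, 1.61 around new, 2.11 around kept spermatocyte and 1.43 around lost summits, and repeat length 190 bp around kept round spermatid and 187 bp around lost summits. Arrays held 11.1% of round spermatid and 9.43% of spermatocyte summits, the density difference in spermatocytes was -3.46, and 43.5% of lost summits were displaced. Without the highest 0.1% of positions 53.84% of round spermatid and 55.36% of spermatocyte summits were kept.

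Smoothing over 3 and 7 bins gave regularities of 2.31 and 1.957 around kept round spermatid, 1.58 and 1.43 around new, 2.15 and 1.84 around kept spermatocyte and 1.41 and 1.31 around lost summits. Repeat length was 187 bp around lost summits with 3 bins and 193 bp around new and lost summits with 7. Array gaps of 160 to 210 bp, gaps of 140 to 240 bp and arrays of 6 or more held 6.28%, 18.1% and 3.59% of round spermatid and 5.05%, 15.4% and 2.57% of spermatocyte summits. The kept share inside minus outside was then 9.08, 5.85 and 9.06 points in round spermatids and 11.4, 7.93 and 11.6 in spermatocytes. Counting density within 1 kb gave -1.68 in round spermatids and -1.47 in spermatocytes, and within 20 kb -3.37 in spermatocytes. With displacement up to 140 bp, 62.7% of lost summits were displaced. At 1.5-fold, 233424 kept pairs were higher and 198820 lower in round spermatids.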

Other observations

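Regularity over all summits differed between the stages in the same direction in both genotypes, unlike the share of summits in arrays. It was 1.83 in round spermatids and 1.69 in spermatocytes of WT, and 2.17 in round spermatids and 1.89 in spermatocytes of H2A.L.2-less mice. In each genotype the median fuzziness score was lower in round spermatids, at 53.2 against 53.3 in spermatocytes of WT and at 52.7 against 53.1 in spermatocytes of H2A.L.2-less mice. The new minus kept difference in median fuzziness was 1.22 for WT and 0.520 for H2A.L.2-less lists.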
